A study of Mus musculus with 18 samples.

Results

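The clustered histone genes are the rows of the deposited tables whose symbol begins with Hist1h, Hist2h, Hist3h or Hist4h. There were 65 of them among 18329 genes in the acute table and 66 among 18953 in the survival table, and 66 of 19509 genes were listed in at least 1 table. By the type in the symbol, the survival table held 6 H1, 17 H2a, 18 H2b, 12 H3 and 13 H4 genes, and the acute table lacked only the H1 gene Hist1h1t. In the GENCODE M21 annotation of GRCm38, 52 of the 66 lie in the Hist1 group of chromosome 13, 10 in Hist2 on chromosome 3, 3 in Hist3 on chromosome 11 and 1, Hist4h4, on chromosome 6. All but Hist3h2bb-ps, a pseudogene, are annotated as protein coding.

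The 18 RNA libraries came from spleens of C57BL/6 mice that held T-cell acute lymphoblastic leukemia (T-ALL), a cancer of immature T cells. Every leukemia, controls included, carried a conditional knockout allele of Acly, the gene of ATP citrate lyase, and had been injected into a vein of irradiated recipients. Acute spleens were taken 48 h after tamoxifen (KO acute, n = 4) or corn oil (WT acute, n = 4) was given to overtly leukemic mice. Survival spleens came from recipients dosed 48 h after the leukemia was transferred and collected at the humane endpoint, and were labelled KO first wave (n = 3), KO second wave (n = 3) and WT (n = 4). Tamoxifen was given at 3 mg per mouse, so KO and WT libraries differ in the drug as well as in Acly, and no label explains the waves. Nothing in the labels ties each library to its own mouse or leukemia, and p-values therefore reflect only the spread seen among these samples, which may be technical. The study's design text gives 5 samples per genotype, whereas 10 KO and 8 WT samples are listed. The labelled knockout was reflected in Acly itself, which was at 1422, 1129, 1231 and 1241 normalized counts in WT acute replicates 1 to 4 and at 793, 804, 717 and 619.6 in KO acute. The acute difference in Acly was -0.78 (SE 0.13, limma adjusted p = 0.00266), and in the survival libraries it was -1.22 (adjusted p = 0.0562) in the first wave and -1.56 (adjusted p = 0.00155) in the second.

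Core histones H2A, H2B, H3 and H4 form the octamer around which DNA is wrapped, and H1 is the linker histone that binds where DNA enters and leaves it. A dividing cell must double its histones while it copies its DNA, and the clustered genes supply most of them: they are transcribed mainly in S phase at a nuclear structure called the histone locus body. Their mRNAs usually have no introns and end in a conserved stem-loop instead of a poly(A) tail, and the stem-loop binding protein SLBP guides their processing, translation and decay. Many encode the same protein from near-identical copies. Leukemic T cells divide rapidly and are therefore a tissue in which these genes are active.

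The stem-loop was searched in the annotated transcripts as 16 nt with a perfect stem of 6 base pairs around a loop of 4, and was found in 40 of the 66 members: 3 of 6 H1, 11 of 17 H2a, 8 of 18 H2b, 6 of 12 H3 and 12 of 13 H4. Its first 5 bases separated the H4 genes from all others. All 28 stem-loops of H1, H2a, H2b and H3 genes began with GGCTC, whereas of the 12 in H4 genes 10 began with GGCCC and 2 with GGTCC. The stem-loops below belong to genes described in the acute comparison, are from GENCODE M21 transcripts and have up to 5 flanking bases on each side. Capitals mark the stem and loop.
Hist1h4m (chr13:21812124-21812147, plus strand): ctaaaGGCCCTTTTCAGGGCCatc
Hist1h4d (chr13:23581945-23581970, plus strand): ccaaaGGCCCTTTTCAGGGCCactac
Hist1h4h (chr13:23531453-23531478, plus strand): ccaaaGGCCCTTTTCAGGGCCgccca
Hist1h4j (chr13:21735432-21735457, plus strand): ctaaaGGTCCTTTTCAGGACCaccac
Hist1h2bg (chr13:23571838-23571863, plus strand): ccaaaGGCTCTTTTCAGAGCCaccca
Hist1h2bh (chr13:23542923-23542948, minus strand): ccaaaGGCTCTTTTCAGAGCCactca
Hist2h3c2 (chr3:96238480-96238505, minus strand): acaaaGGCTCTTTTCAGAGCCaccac
Hist1h1d (chr13:23555782-23555807, plus strand): caaacGGCTCTTTTCAGAGCCaccca
The Hist1h4m model stops 3 nt after the stem-loop, near where the mature mRNA ends, while the Hist1h1d model runs on for another 4884 nt. A stem-loop absent from a model says only that these letters are not in the annotated transcript.

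Promoter sequences from RefSeq (GRCm38.p6, 250 bases before to 50 after the start) were matched to 60 members by symbol, synonym, strand and position. CCAAT, read on both strands, stood in all 6 H1, 17 H2a, 15 H2b and 10 H3 promoters matched but in 3 of 12 H4 promoters, against 37.9% of all 27025 promoters in the table. The octamer ATTTGCAT, the element of H2b promoters bound by POU factors such as OCT1, stood in 6 of 17 H2a and 5 of 15 H2b promoters, in no H1, H3 or H4 promoter, and in 1.75% of all promoters. Windows of some H2a and H2b genes overlap, so the same site can be counted for both. This holds for the octamer of Hist1h2ae and Hist1h2bg and for that of Hist1h2ah and Hist1h2bk. TATAAA stood in 33 of the 60 and in 14.2% of all. A match describes letters only. Shown are 2 H2b promoters that each overlap the window of an H2a gene, 1 with an octamer and 1 without, and the promoter of Hist1h4m, the H4 gene with the highest count. Capitals mark CCAAT, ATTTGCAT and TATAAA on either strand.
Hist1h2bg (chr13:23571150-23571449, plus strand): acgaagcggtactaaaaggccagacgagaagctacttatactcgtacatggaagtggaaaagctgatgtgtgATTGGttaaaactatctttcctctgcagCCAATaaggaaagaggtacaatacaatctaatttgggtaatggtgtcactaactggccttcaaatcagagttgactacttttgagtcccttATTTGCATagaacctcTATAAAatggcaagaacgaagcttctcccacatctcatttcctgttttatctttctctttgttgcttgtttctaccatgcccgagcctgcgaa
Hist1h2bj (chr13:22042948-22043247, plus strand): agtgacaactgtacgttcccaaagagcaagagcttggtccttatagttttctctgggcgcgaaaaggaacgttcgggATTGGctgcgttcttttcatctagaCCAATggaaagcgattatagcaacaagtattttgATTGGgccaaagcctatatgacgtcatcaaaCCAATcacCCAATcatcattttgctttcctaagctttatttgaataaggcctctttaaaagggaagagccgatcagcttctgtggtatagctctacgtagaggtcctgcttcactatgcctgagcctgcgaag
Hist1h4m (chr13:21811496-21811795, plus strand): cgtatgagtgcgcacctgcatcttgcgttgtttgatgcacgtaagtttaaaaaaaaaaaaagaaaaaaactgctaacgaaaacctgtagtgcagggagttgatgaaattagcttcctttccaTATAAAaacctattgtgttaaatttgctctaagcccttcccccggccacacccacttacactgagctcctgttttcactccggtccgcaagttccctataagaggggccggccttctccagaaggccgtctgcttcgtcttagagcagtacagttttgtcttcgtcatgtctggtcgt
The Hist1h2bg window holds 1 octamer, 2 CCAAT and 1 TATAAA, the Hist1h2bj window 5 CCAAT, and the Hist1h4m window 1 TATAAA and no CCAAT.

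Normalized counts summed to 7639300 to 8026400 per library in WT acute and 7067000 to 7256900 in KO acute, and to 9193200 to 10387000, 9849300 to 10075000 and 9695200 to 10118000 in WT survival, first wave and second wave, and the sequencing depth behind them is unknown. Because copies are so alike, reads can be split between them. The share of a gene's 31 nt stretches that occur in no other annotated gene ranged from 0% to 100% among the members, with a median of 40.9%, and lay under 10% for 11 members and at 80% or more for 10. Sums over a histone type do not depend on how reads are divided within it, so they are given beside the values of single genes. They leave out reads that go to genes outside the members. Gm20634, for example, is not a member and shares all stretches of Hist2h2aa2 and Hist2h3c1. Whether the libraries were made by poly(A) selection or by removal of ribosomal RNA is not stated in the labels or notes used, and none of 23 well-known RNAs without a poly(A) tail, such as Rmrp, Terc and Rn7sk, was listed in either table. It is not known whether these RNAs were among the transcripts quantified, so their absence does not tell how the libraries were made. In bulk spleen, fewer cells of a type and less RNA per cell cannot be told apart.

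The acute comparison asks what differed 48 h after Acly deletion was induced in established leukemia. Histone mRNA was lower in the KO libraries, most of all that of H4. Summed over the members, histone genes were at 35515, 30886, 31895 and 40322 normalized counts in WT acute replicates 1 to 4 and at 12704, 13351, 17312 and 19342 in KO acute. Every KO library lay below every WT library, and the KO mean was 45.2% of the WT mean (15677 ± 3181 against 34654 ± 4269, SD, n = 4 each). As a share of all normalized counts, the histone sum took 0.398% to 0.502% of WT and 0.175% to 0.272% of KO libraries.

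The H4 sum was at 17488, 15651, 16514 and 21584 in WT and 2883, 3498, 5904 and 7456 in KO, 27.7% of WT. For H2b the sum was at 9379, 8415, 8587 and 10508 in WT and 4352, 4065, 5488 and 5544 in KO, 52.7% of WT. The H2a sum was at 75.2%, the H3 sum at 75.7% and the H1 sum at 79.3% of WT. In all 5 types the 4 KO sums lay below the 4 WT sums, narrowly so for H2a (highest KO 963, lowest WT 975) and H3 (2731 and 2778). The make-up of the histone pool differed with it: H4 counts were 49.2% to 53.5% of the histone sum in WT and 22.7% to 38.5% in KO, and H2b counts 26.1% to 27.2% and 28.7% to 34.3%. Both shares depend on 1 gene, Hist1h4m, which made up 74.0% to 79.6% of the H4 count in WT. Without Hist1h4m the histone sum was at 59.1% of WT, above the 52.7% of H2b. By group means, the H2b share was therefore not higher in KO once this gene was left out. These shares are in normalized counts, not corrected for transcript length, and no test was made on sums.

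**Figure D1:**
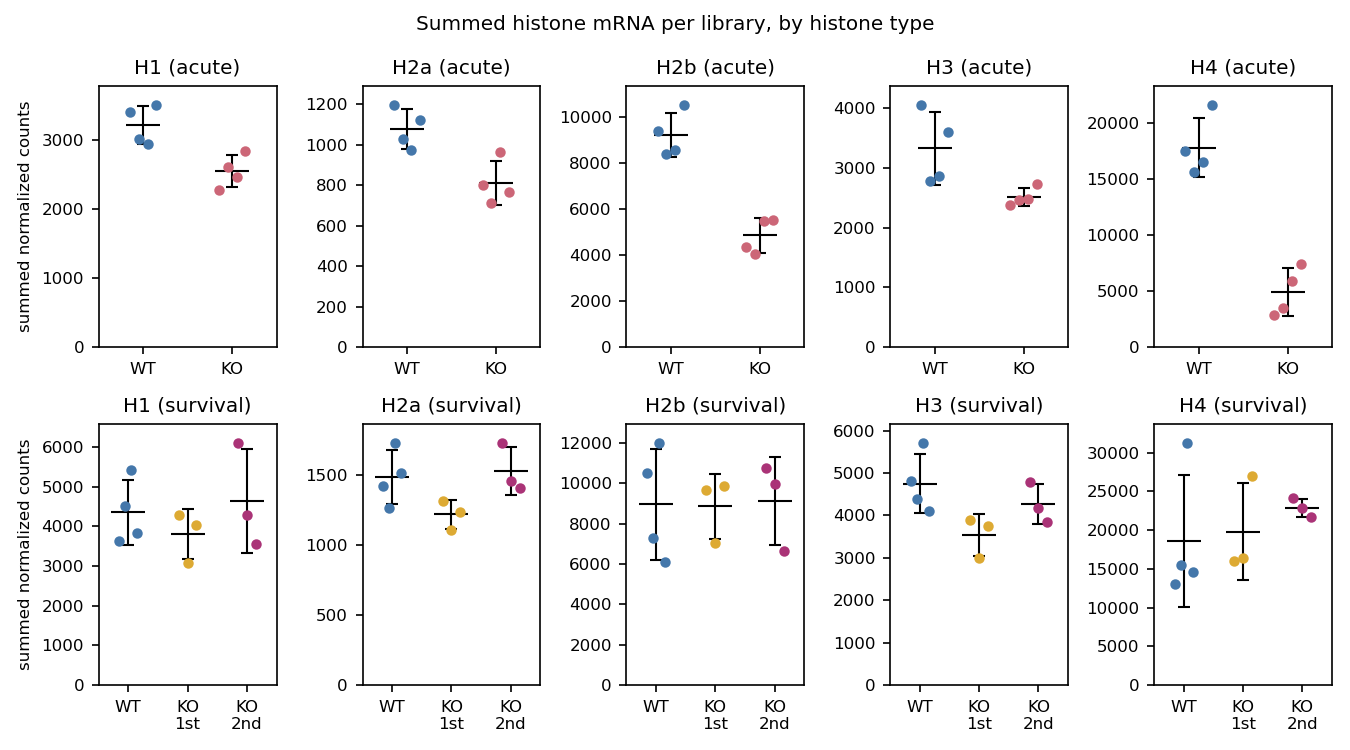
Summed normalized counts of the listed members of each histone type, 1 point per library, acute libraries in the upper row and survival libraries in the lower row; black bars are the mean and SD. In the acute row each KO point lies below each WT point, with the widest gap for H4 (27.7% of WT), while the survival groups overlap in most panels.

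Of the 62 members with a mean of at least 10, which were tested, 28 were lower in KO acute and 0 higher (45.2% lower), where 8.07% of all 14184 genes tested were lower and 4.58% higher (limma adjusted p under 0.05). At an unadjusted p under 0.05, 37 were lower and 0 higher, against 15.6% and 12.5% of all genes. The log2 fold change was negative for 55 of 62, against 47.6% of all genes, with a median of -0.76 against 0.03. The KO and WT libraries did not overlap for 27 members, all lower in KO, against 11% of all genes lower and 8.04% higher. Lower calls were made for 9 of 13 H4 genes, 13 of 18 H2b genes, 3 of 14 H2a genes, 2 of 12 H3 genes and 1 of 5 H1 genes, with medians of -1.27, -0.98, -0.55, -0.37 and -0.28. Without KO acute replicates 1 and 2, which had the highest mitochondrially encoded share, 17 members were called lower, all among the 28.

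**Figure D2:**
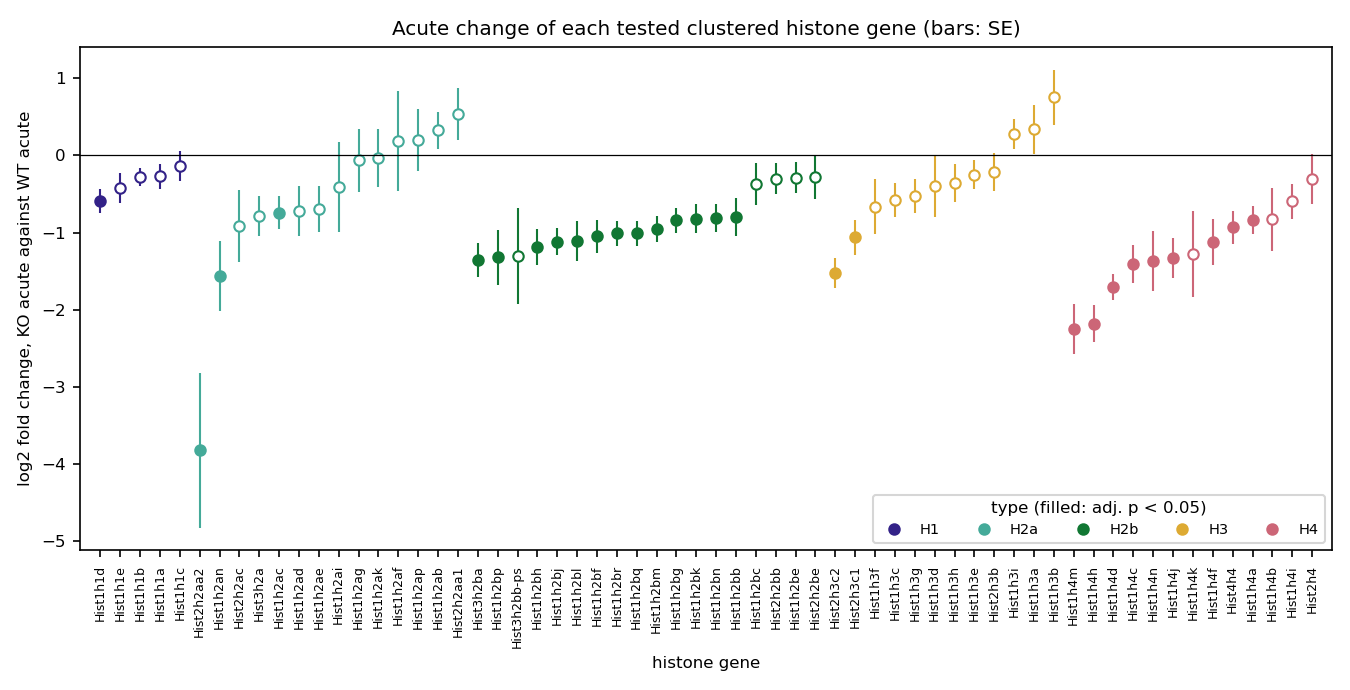
Log2 fold change of KO acute against WT acute for each of the 62 tested members, grouped by histone type and ordered within it; bars are the SE and filled points passed limma's adjusted p of 0.05. All 13 H4 and all 18 H2b genes lie below 0, and the 7 members above 0 are H2a and H3 genes that did not pass the test.

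H4 is encoded by many genes that all make the same protein. Hist1h4m, the member with the highest normalized count (not divided by transcript length), was at 13206, 11582, 12739 and 17181 normalized counts in WT acute and 1280.4, 2298, 4021 and 5480.3 in KO acute. Every KO library lay below every WT library, and KO replicate 1 was the lowest. The fold change was -2.25 (SE 0.33, limma adjusted p = 0.00131). Only 8.3% of its 31 nt stretches are its own, and 91.7% are shared with Hist1h4n, an H4 gene at chr13:21831767-21832196. Hist1h4n itself was at 1195, 587, 883 and 906 in WT and 349.5, 119, 497 and 603 in KO, with the groups overlapping, at -1.37 (SE 0.39, limma adjusted p = 0.0345), a call lost under 9 of 18 alternatives. Summed, the pair was at -2.16 (SE 0.30, limma adjusted p = 0.00119).

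Other H4 genes were called lower as well. Hist1h4d, of which 85.3% of the stretches are unique, was at 1357, 1715, 1252 and 1626 in WT and 419.8, 339, 555 and 533 in KO. No KO library reached the lowest WT value, and the fold change of -1.70 (SE 0.17, limma adjusted p = 0.000517) had the smallest p of any member. Hist1h4h, which shares 44.8% of its stretches with Hist1h4j, was at 209, 361, 268 and 324 in WT and 48.1, 63.4, 62.1 and 78.5 in KO, well apart, a change of -2.18 (SE 0.24, limma adjusted p = 0.000758). Hist1h4c fell from 240.4 ± 44.5 to 91.2 ± 25.5 (SD, n = 4 each) at -1.41 (SE 0.25, limma adjusted p = 0.00343), and Hist1h4j from 168 ± 18.6 to 68.5 ± 20.8 at -1.33 (SE 0.26, limma adjusted p = 0.00602). Both are over 70% unique, and neither overlapped between groups. Hist4h4, which stands alone on chromosome 6, changed by -0.93 (adjusted p = 0.0131), Hist1h4f by -1.12 (adjusted p = 0.0259) and Hist1h4a by -0.83 (adjusted p = 0.0102). Hist4h4 has 88.1% unique stretches, Hist1h4f 46.8% and Hist1h4a 52.1%. The 4 H4 genes that did not pass were Hist1h4k at -1.27, Hist1h4b at -0.83, Hist1h4i at -0.59 and Hist2h4 at -0.31. Without Hist1h4m and Hist1h4n the H4 sum was at 39.3% of WT, and the histone sum without Hist1h4m at 59.1%. Hist1h4m made up 74.0% to 79.6% of the H4 count in WT and 44.4% to 73.5% in KO.

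H2b genes encode the partner of H2A in the dimers at the rim of the octamer. All 18 tested H2b genes had a negative log2 fold change. Hist1h2bk was at 1143, 939, 1097 and 1842 in WT and 623, 608, 797 and 738 in KO, Hist1h2bh at 1354, 1211, 1139.5 and 1119.9 in WT and 545, 283, 749 and 671 in KO, and Hist1h2bg at 944, 883, 711 and 952 in WT and 469.6, 385, 517 and 583 in KO. In each of these the KO libraries lay below the WT libraries. Their fold changes were -0.82 (SE 0.19, limma adjusted p = 0.0121), -1.19 (SE 0.24, limma adjusted p = 0.00676) and -0.84 (SE 0.16, limma adjusted p = 0.00479). The calls of Hist1h2bk and Hist1h2bh were lost in limma without the variance trend (adjusted p = 0.0745 and 0.0588). That of Hist1h2bk was also lost after removal of the dependence on transcript length, GC and expression level (-0.51, adjusted p = 0.0787) and without KO acute replicates 1 and 2 (adjusted p = 0.094). Hist3h2ba, of the chromosome 11 group, fell from 500.2 ± 108 to 197 ± 53.4 (SD, n = 4 each), at -1.35 (SE 0.22, limma adjusted p = 0.00225), the strongest change among H2b genes. Hist1h2bq and Hist1h2br share at least 93.8% of their stretches and when summed were lower (-1.01, SE 0.15, limma adjusted p = 0.00149). The 5 H2b members that did not pass were Hist1h2bc, Hist1h2be, Hist2h2bb, Hist2h2be and the pseudogene Hist3h2bb-ps.

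H2A pairs with H2B in the nucleosome, and 3 of its 14 tested genes were called. Hist1h2ac was at 141, 133, 161 and 167 in WT and 88.3, 95.0, 101 and 75.1 in KO, without overlap, at -0.74 (SE 0.22, limma adjusted p = 0.0393), a call lost under 11 of 18 alternatives. Hist3h2a was at 178, 159, 129.8 and 143 in WT and 81.1, 123, 99.9 and 58.9 in KO, also without overlap, and missed the threshold at -0.78 (SE 0.26, limma adjusted p = 0.0624). Hist1h2ab, by contrast, was at 113, 76.1, 79.2 and 89.8 in WT and 102, 129, 114 and 102 in KO, with overlapping groups, at 0.33 (SE 0.24, limma adjusted p = 0.397). Hist1h2an was called lower at -1.56 (SE 0.45, limma adjusted p = 0.0380), but most of its stretches are shared with Hist1h2ah and the call was lost under 10 of 18 alternatives. It shares 81.5% of its stretches with Hist1h2ah and 80.4% with Hist1h2ad, which link it in a chain to Hist1h2af, Hist1h2ag and Hist1h2ai (71.3% to 78.5% shared with it). Summed over these 6 genes, the value was -0.61 (SE 0.24, limma adjusted p = 0.112), with overlapping groups.

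The largest fold change of any member belonged to a gene whose reads cannot be told from those of its neighbour. Hist2h2aa2 was at 28.7, 44.9, 56.0 and 114 in WT and 0, 37.2, 4.88 and 0 in KO, at -3.82 (SE 1.00, limma adjusted p = 0.0247). None of its stretches is unique, and KO replicate 2 lay within the WT range. Its copy Hist2h2aa1 was at 87.6, 67.9, 68.7 and 71.3 in WT and 117, 50.6, 166 and 134 in KO, higher in 3 of 4 KO libraries than in any WT library. The pair summed to 116, 113, 125 and 185 in WT and 117, 87.9, 170.4 and 134 in KO, a difference of -0.09 (SE 0.26, limma adjusted p = 0.852), so the call on Hist2h2aa2 did not hold for the pair. Gm20634, which is not in this sum, shares 100% of the stretches of Hist2h2aa2 and 89.7% of those of Hist2h2aa1.

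Of the H3 genes 2 of 12 were called, both in the chromosome 3 group. Hist2h3c2 was at 459.7, 429.6, 324 and 455 in WT and 132, 123, 139 and 187 in KO, with no overlap, at -1.52 (SE 0.19, limma adjusted p = 0.000955). Hist2h3c1 was at -1.06 (SE 0.23, limma adjusted p = 0.00897), with no stretch of its own, and Hist2h3b, Hist2h3c1 and Hist2h3c2 together were at -0.95 (SE 0.17, limma adjusted p = 0.00361). Hist2h3b shares 80.6% of its stretches with each of the others, and Hist2h3c2 shares 64.2% of its own with Hist2h3c1. Gm20634, which is not in this sum, shares 100% of the stretches of Hist2h3c1, 80.6% of those of Hist2h3b and 64.2% of those of Hist2h3c2. The 3 H3 genes with the highest counts did not pass. Hist1h3h was at 473, 422, 497 and 704 in WT and 538, 436, 225 and 489.6 in KO (-0.36, adjusted p = 0.379), and with its near copy Hist1h3i at -0.08. Hist1h3c was at 771, 436, 390.1 and 599.6 in WT and 329, 272, 395 and 448 in KO (-0.58, adjusted p = 0.105), and Hist1h3e at 488, 293, 472 and 385 in WT and 300, 296, 343 and 429.9 in KO (-0.25, adjusted p = 0.439). The groups overlapped for all 3. Hist1h3b, Hist1h3a and Hist1h3i had positive values (0.75, 0.34 and 0.28) that did not pass.

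The H1 genes have the most distinct sequences, and their median was the nearest to 0 of the 5 types. Hist1h1d was the 1 of 5 called lower: it was at 681, 506, 649 and 820.1 in WT and 413, 431, 419 and 476 in KO, with all KO libraries below the lowest WT library, at -0.59 (SE 0.16, limma adjusted p = 0.0266). The call was lost under 7 of 18 alternatives, with adjusted p from 0.0173 to 0.113. Hist1h1b was at 1118, 1240.4, 996 and 1286 in WT and 937, 901, 952 and 1017 in KO, with overlap, at -0.28 (SE 0.12, limma adjusted p = 0.148). Hist1h1a was at 842, 744, 810.1 and 793 in WT and 478, 724, 682 and 804 in KO, also with overlap, at -0.27 (SE 0.16, limma adjusted p = 0.286). Hist1h1e and Hist1h1c were at -0.42 and -0.14 and did not pass. After removal of the dependence on transcript length, GC and expression level, Hist1h1a, Hist1h1b and Hist1h3e turned to 0.05, 0.06 and 0.02. Testis histones were near absent: Hist1h1t was listed only in the survival table, at 0 to 10.9 normalized counts, and Hist1h2aa and Hist1h2ba in neither.

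Many H2a and H2b genes lie head to head and share a promoter region. In 9 such pairs the RefSeq promoter windows of the H2a and H2b gene overlapped by 233 to 279 nt, and both genes were tested in 7. The H2b gene was called lower in all 7 and the H2a gene in 1, and the H2b fold change was the lower value in 6. Over all tested members, paired or not, 13 of 18 H2b and 3 of 14 H2a genes were called lower, against 8.07% of all genes. Whether the pairs differ from these rates was not tested. In the pair of Hist1h2bj and Hist1h2ag, whose shared region is among the promoters printed above, Hist1h2bj was at 759.6, 556, 481 and 519 in WT and 225, 239, 293 and 300.3 in KO, clearly apart, while Hist1h2ag was at 33.9, 52.0, 55.0 and 25.4 in WT and 59.8, 26.3, 47.4 and 27.7 in KO with overlap. Their fold changes were -1.12 (adjusted p = 0.00211) and -0.06 (adjusted p = 0.941). Hist1h2bn and Hist1h2ak stood at -0.81 and -0.03, and Hist1h2br and Hist1h2ap at -1.01 and 0.20. Hist1h2bg and Hist1h2ae were closer, at -0.84 and -0.69, and Hist1h2an, at -1.56, was the exception below its partner Hist1h2bp, at -1.32. The difference between partners was not tested, and most of the H2a genes in the pairs have low counts and share reads with other H2a copies.

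**Figure D3:**
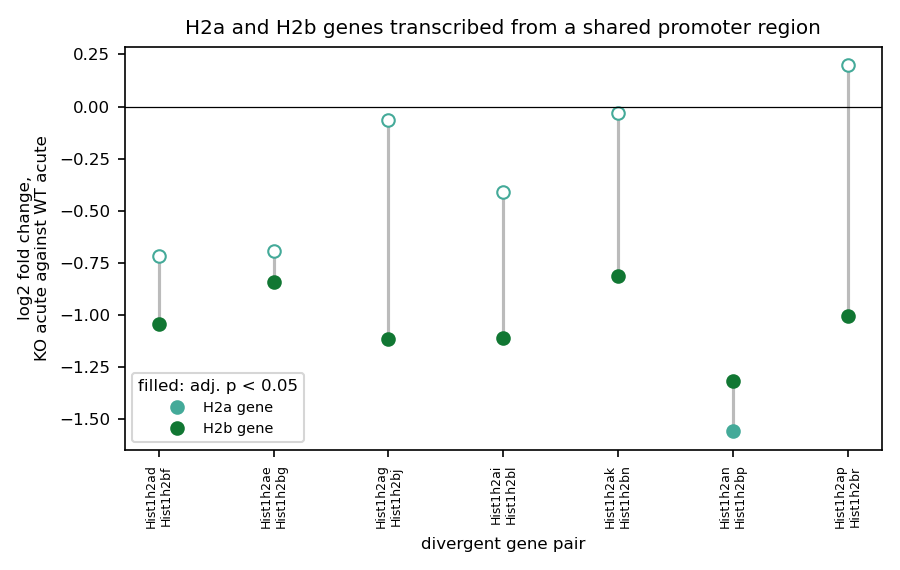
Log2 fold change of KO acute against WT acute for the H2a and H2b genes of the 7 divergent pairs with both genes tested; grey lines join partners and filled points passed limma's adjusted p of 0.05. The H2b point is filled in all 7 pairs and lies below the H2a point in 6, with Hist1h2an and Hist1h2bp as the exception. Over all tested members, 13 of 18 H2b and 3 of 14 H2a genes were called lower.

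The lower calls were not restricted to genes with shared sequence or to models of 1 kind. They were made for 10 of 20 tested members with under 25% unique stretches, 11 of 25 with 25% to 65%, and 7 of 17 with at least 65%, of which 9 had at least 80% and 4 of these were called. Of all genes tested, 8.07% were called lower. The size of the change was less even: the median log2 fold change was -0.82, -0.83 and -0.42 in these 3 groups. It was -0.31 for the 9 members with at least 80%. Whether the change depends on shared sequence was not tested. With copies joined in chains, in which each gene shares at least 80% of stretches with 1 other gene of the chain but not always with all of them, 23 of 52 tested units were lower and 0 higher. A stem-loop was found in the model of 39 tested members, of which 21 were called (median -0.83). It was not found in 23, of which 7 were called (median -0.41). This split is tied to histone type, since 12 of 13 H4 but 8 of 18 H2b and 3 of 6 H1 members have a stem-loop in the model. Of models that end within 100 nt after the stem-loop 9 of 19 were called, and of those that run over 300 nt past it 9 of 16. Among 1016 tested genes outside the clusters with a longest transcript under 1000 nt the median was 0.02 and 7.19% were called lower. After removal of the dependence on transcript length, GC and expression level, the histone median was -0.57 and 51 of 62 were negative.

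**Figure D4:**
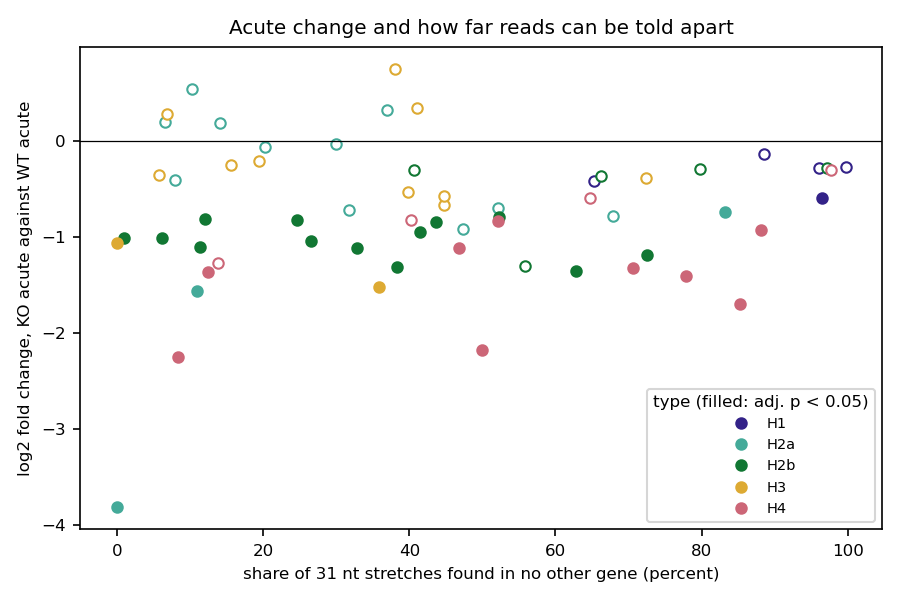
Log2 fold change of KO acute against WT acute plotted against the share of a gene's 31 nt stretches found in no other annotated gene, for the 62 tested members; colours are histone types and filled points passed limma's adjusted p of 0.05. Filled points occur along the whole axis, from Hist2h2aa2 at 0% to Hist1h1d at 96.5%. The median was -0.82 for members under 25% and -0.31 for those at 80% or more.

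Histone genes outside the clusters, which are mostly polyadenylated and used throughout the cell cycle, were also tested: 5 of 11 were lower and 1 higher, with a median of -0.39, where 8.07% of all genes were lower, 4.58% were higher and the median was 0.03. H2afz, which encodes the variant H2A.Z, was at 2616, 3234, 2946 and 3534 in WT and 1264, 1159, 1819 and 1443 in KO, without overlap, at -1.13 (SE 0.15, limma adjusted p = 0.000955). H3f3b, a gene of the replacement histone H3.3, fell from 3391 ± 235 to 2209 ± 117 (SD, n = 4 each), at -0.62 (SE 0.10, limma adjusted p = 0.00208), and H3f3a changed by -0.39 (adjusted p = 0.0271) and Cenpa, the centromere H3, by -0.52 (adjusted p = 0.0201). The H3f3b call was lost after adjustment for transcript length, GC and expression level (adjusted p = 0.17). H3f3c, at -4.88, has only 8.7% unique stretches and was at 0 in 3 KO libraries. H2afy3, a macroH2A symbol at low counts, was the 1 called higher, at 34.9, 18.9, 25.1 and 13.6 in WT and 55.9, 76.7, 64.2 and 58.9 in KO, a call lost under 3 of 17 alternatives. H2afx, which encodes the variant that is phosphorylated at DNA breaks, did not pass (-0.38, adjusted p = 0.345).

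Of 25 listed genes of the histone locus body and histone pre-mRNA processing 3 were lower and 0 higher, with a median of -0.16, and 8.07% of all genes tested were lower. Cstf2, a subunit of the cleavage complex, was at 1769, 1789, 1935 and 1960.3 in WT and 1041, 1119, 1257 and 1426 in KO, without overlap, at -0.63 (SE 0.12, limma adjusted p = 0.00522). Snrpb and Cpsf2 were at -0.45 (adjusted p = 0.0435) and -0.41 (adjusted p = 0.0487), calls lost under 14 of 18 alternatives each. Slbp and Npat, named here after their values were seen because they are the stem-loop binding protein and the activator of the locus body, did not pass: Slbp was at 2556, 1961, 1755 and 2088 in WT and 1704, 1827, 1829.5 and 1717 in KO (-0.23, adjusted p = 0.242), and Npat at -0.46 (adjusted p = 0.0653).

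Of 24 histone chaperone and chromatin assembly genes 6 were lower and 0 higher, with a median of -0.05, where 8.07% of all genes were lower and 4.58% higher. Set was at -0.52 (adjusted p = 0.00311), Supt16, a subunit of the chaperone FACT, at -0.53 (adjusted p = 0.00365), and the histone-binding Rbbp7 and Rbbp4 at -0.68 (adjusted p = 0.00757) and -0.54 (adjusted p = 0.0106). Of 32 S phase genes 8 were lower and 0 higher against the same background, with a median of -0.25 and 25 negative. Rfc4, of the clamp loader, was at 495, 449, 520 and 429 in WT and 274, 167, 209 and 241 in KO, apart, at -1.10 (SE 0.18, limma adjusted p = 0.00225). Pcna, the clamp, was at -0.78 (adjusted p = 0.00227), Cdk2 at -0.68 (adjusted p = 0.00522) and Rrm2, of ribonucleotide reductase, at -0.67 (adjusted p = 0.00330). After that adjustment, Pcna, Rrm2, Set, Rbbp7 and Rbbp4 did not pass (adjusted p from 0.0864 to 0.251). The S phase genes summed to 0.495% to 0.667% of the library in WT acute and 0.411% to 0.497% in KO acute. The part of these lists in the histone values was not tested.

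Cell type markers moved with the acute groups in part. The 10 markers of T-ALL and thymocytes, all listed, summed to 0.701% to 0.883% of the library in WT acute and 0.543% to 0.793% in KO acute. Of these 10, 3 were called lower and 1 higher, and 9 were negative (median -0.28). Among all genes tested, 8.07% were called lower and 4.58% higher. The 9 erythroid markers were at 0.0663% to 0.130% in WT acute and 0.0621%, 0.138%, 0.0222% and 0.0287% in KO acute replicates 1 to 4, with 1 called lower and all 9 negative. The 8 markers of neutrophils and their precursors were at 0.00916% to 0.0205% in WT and 0.0199% to 0.0605% in KO, with 2 called higher and all 8 positive (median 0.69). The 6 B cell markers were at 0.00205% to 0.00672% in WT and 0.00326% to 0.0105% in KO. All 5 that were tested were positive (median 1.09), and none was called. No marker was at 0 in all libraries of a group. Mitochondrially encoded genes took 4.80%, 5.27%, 2.35% and 2.70% of KO acute replicates 1 to 4 and 3.50% to 3.69% of WT. The part of these cells in the histone values was not tested.

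The survival comparisons ask how leukemias that grew out after early Acly deletion compared with WT leukemias at the endpoint. No clustered histone gene was called in either wave, where 0% of all genes passed in the first and 0.224% in the second. The histone sum was at 33406, 32981, 56069 and 30074 normalized counts in WT survival replicates 1 to 4, at 35194, 30586 and 45866 in the first wave and at 47453, 42685 and 37223 in the second. WT replicate 3 was the highest and WT replicate 4 the lowest of the 10 libraries, and both waves lay between them. The first wave was at 97.6% and the second at 111% of the WT mean. Levels are not compared between the acute and survival tables, which were normalized separately, and whether the acute and survival differences differ from each other was not tested.

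In the first wave against WT, 0 of the 62 tested members passed (0% of 14286 genes did). At an unadjusted p under 0.05, 5 were lower and 0 higher, against 3.6% and 4.42% of all genes (8.02% in either direction), and the median was -0.06 (limma). The log2 fold change was negative for 38 of 62, against 49.4% of all genes, and first-wave and WT libraries did not overlap for 5 lower and 0 higher members, against 3.6% and 4.4%. The H3 sum alone did not overlap: it was at 3888, 2985 and 3750.2 in the first wave and 4810.4, 4385, 5705 and 4099 in WT, 74.6% of WT. The 3 members with the smallest p were H3 genes. Hist1h3e was at 546, 434 and 655 in the first wave and 662, 1255, 856 and 958 in WT, Hist1h3b at 58.8, 53.5 and 77.0 in the first wave and 103, 104, 128 and 121 in WT, and Hist1h3a at 149.6, 93.9 and 147 in the first wave and 347, 191, 274 and 199.8 in WT. Each was lower in all 3 first-wave libraries than in any WT library, at -0.76, -0.85 and -0.94 (limma adjusted p = 0.617 each). The H4 sum overlapped, at 16031, 16387 and 26994 in the first wave and 13023, 15542, 31213 and 14537 in WT, as did Hist1h4m, at 10342, 11935 and 21867 in the first wave and 8858, 11297, 25245 and 11357 in WT.

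In the second wave against WT, 0 of 62 passed, against 0.224% of all genes (0.049% higher). Second-wave and WT libraries did not overlap for 2 lower and 6 higher members, against 4.62% and 5.04% of all genes. At an unadjusted p under 0.05, 4 were lower and 10 higher, against 6.4% and 6.59% of all genes, with a median of -0.02 (limma). Hist2h3c1 was at 476, 377 and 572 in the second wave, above all WT libraries (204, 214, 303 and 285), at 0.92 (SE 0.24, limma adjusted p = 0.158). None of its stretches is unique, and the sum with Hist2h3b and Hist2h3c2, without Gm20634, was at 0.14 (limma adjusted p = 0.829). Hist1h3e was at 530.4, 521 and 506, below all WT libraries, at -0.81 (SE 0.22, limma adjusted p = 0.184). Hist1h4n was at 1596, 1336 and 1420.4 in the second wave and 629, 761, 1288 and 767 in WT, above each of them, at 0.80 (SE 0.24, limma adjusted p = 0.202). Without WT replicate 3 its value was 1.01 and passed (adjusted p = 0.0367). Summed with Hist1h4m it was at 0.43 (adjusted p = 0.567). The H4 sum of the second wave, at 24089, 22828 and 21738, exceeded 3 of the 4 WT libraries.

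With both waves joined, 0 of 62 passed, against 0.021% of all genes (0.014% lower, 0.007% higher). The 6 KO libraries did not overlap WT for 2 lower and 0 higher members, against 0.875% and 1.25% of all genes, and 4 were lower and 4 higher at an unadjusted p under 0.05, against 5.77% and 7.09% of all genes (limma). Hist1h3e was at -0.78 (SE 0.19, limma adjusted p = 0.251), lower in all 6 KO libraries than in any WT library, Hist1h3h at -0.55 (SE 0.18, limma adjusted p = 0.289), also without overlap, and Hist1h4n at 0.64 (SE 0.20, limma adjusted p = 0.286). Hist1h3h was at 555, 411 and 602 in the first wave, 424, 352 and 475 in the second and 607, 631, 851 and 645 in WT. These comparisons share the WT libraries and are not independent of each other.

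The second wave was set directly against the first, and 0 of 62 members passed (0.119% of all genes did, 0.014% higher). The median was 0.24, with 44 of 62 positive, against -0.01 for all genes. At an unadjusted p under 0.05, 0 were lower and 6 higher, against 3.76% and 2.58% of all genes, and the 2 waves did not overlap for 1 lower and 9 higher members, against 7.29% and 6.3% (limma). The H2a sum was higher in every second-wave library, at 1726, 1453 and 1404 against 1312, 1105 and 1235, 125.5% of the first wave, while all other type sums overlapped. Hist2h3c1 was at 476, 377 and 572 in the second wave and 208, 274 and 248 in the first, at 0.95 (SE 0.25, limma adjusted p = 0.356). Hist2h2bb was at 898, 509 and 332 in the second wave and 312, 254 and 208 in the first, at 1.06 (SE 0.31, limma adjusted p = 0.409), and Hist1h2ae at 276, 181 and 210.4 in the second wave and 110.3, 127 and 96.2 in the first, at 0.98 (SE 0.34, limma adjusted p = 0.605). All 3 were higher in every second-wave library than in any first-wave library. Of the S phase genes 27 of 32 were positive in this contrast (median 0.15), and none passed. All 10 markers of T-ALL and thymocytes were negative (median -0.42), and they summed to 0.533% to 0.684% of second-wave and 0.764% to 1.01% of first-wave libraries, without overlap. The 4 tested B cell markers were negative as well (median -1.87), and none of these markers passed. The part of these cells in the histone values was not tested.

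**Figure D5:**
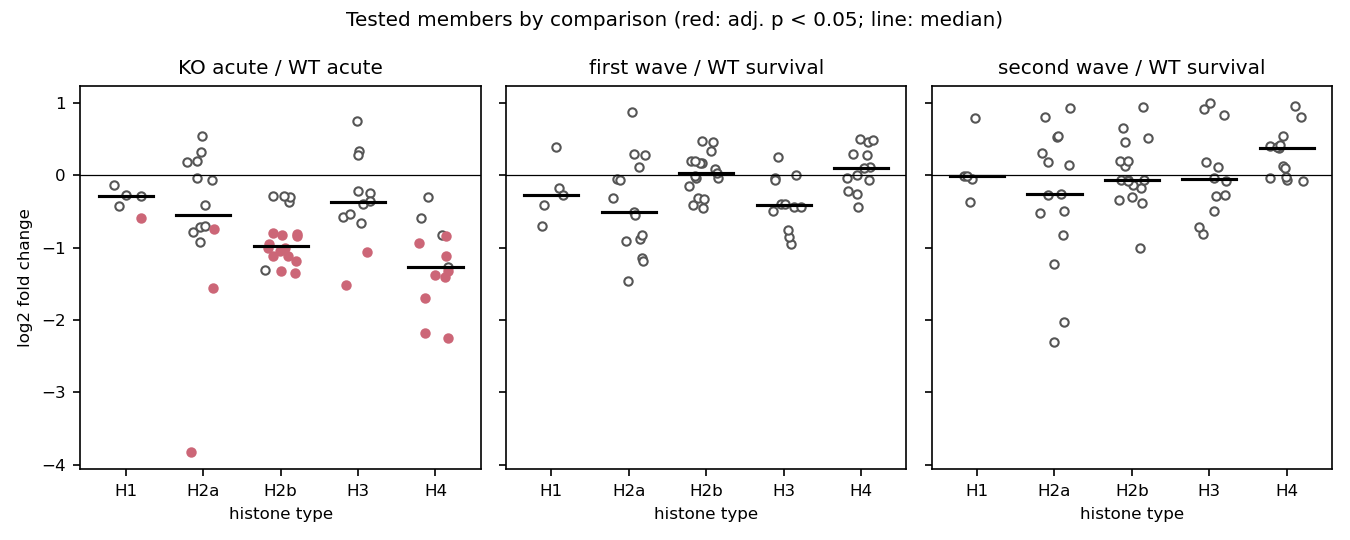
Log2 fold change of the tested members by histone type in 3 comparisons: KO acute against WT acute, first wave against WT survival and second wave against WT survival; lines are medians and red points passed limma's adjusted p of 0.05. The acute panel holds 28 red points, all below 0, and the survival panels hold none. Over all genes tested, 8.07% were called lower in the acute comparison. In the first and second wave against WT, 0% and 0.224% of all genes were called.

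Genes that fell in the acute libraries were not called at the endpoint. Against WT, 0% of all genes passed in the first wave and 0.224% in the second, so the lack of calls says little about these genes. Hist1h4d was at 2157, 1707 and 1659.8 in the first wave, 2315, 1705 and 1391 in the second and 1377, 1394, 2014 and 809 in WT. The WT libraries of Hist1h2bh were at 1329.5, 1010.3, 1951 and 1006, its first-wave libraries at 1251, 947 and 1698 and its second-wave libraries at 1432, 1945 and 1115. Hist1h4h ranged from 227 to 369.8 in WT, 194 to 286 in the first wave and 220.4 to 370.2 in the second, and Hist1h1d from 813 to 1163, 599 to 1009.7 and 787 to 1312. In all 4 the waves overlapped the WT libraries. H2b was at 98.7% of WT in the first wave and 102% in the second, with WT libraries from 6098 to 11994. The WT survival libraries varied in their markers as well: erythroid markers took 0.245% and 0.230% of replicates 3 and 4 and 0.0845% and 0.0532% of replicates 1 and 2, and replicate 3 had the highest and replicate 4 the lowest histone sum. T-ALL and thymocyte markers took 0.480%, 0.587%, 0.808% and 0.867% of WT survival replicates 1 to 4. Neutrophil markers took 0.0156%, 0.00924%, 0.00166% and 0.00244% of them. No list of processing, chaperone, S phase or other histone genes had a member past the threshold in any survival comparison, where at most 0.224% of all genes passed. In the first wave against WT, all 8 neutrophil markers were negative and all 10 T-ALL markers positive, none called. In the second wave against WT, all 4 tested B cell markers were negative, and 1 was called lower, against 0.175% of all genes. The part of marker shares in the histone values was not tested.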

How the data were processed

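Transcripts were quantified with kallisto 0.44.0 on GRCm38 and the counts divided by DESeq size factors, per the submitters' processing notes. The deposited values are therefore a signal in normalized counts that the authors scaled separately for the acute and the survival libraries. Whole reads could not be recovered from them, so the sequencing depth of each library is unknown. The libraries were made from total RNA of spleens pressed through a filter and cleared of red cells, with a strand-specific kit, per the labels' protocols.

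Each table was fitted with limma 3.58.1 (R 4.3.3, trended empirical Bayes) on log2(value + 1) over genes with a mean of at least 10, so fold changes of low genes are understated. P-values were adjusted over all genes tested (Benjamini-Hochberg, two-sided), with a threshold of 0.05. All 10 survival libraries shared 1 fit for 4 comparisons. The fit was checked on simulated data. GENCODE M21 gave coordinates, transcripts and stem-loops, and RefSeq the promoters.

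The members and gene lists were chosen with earlier results of these data known. Named genes were Acly, the 3 members of each type with the highest mean, the 10 largest changes past the threshold in each comparison, the testis-specific members, and up to 4 called genes per list. In each survival comparison the 3 members with the smallest p were added. Other genes were named to complete a type, pair or list or for their role, and were not followed singly through the alternatives. Alternatives were pseudocounts of 0.5 and 5, a minimum mean of 50 or none, quantile normalization, other variance settings, a replicate block, removal of the dependence on transcript length, GC and expression level, single libraries left out, pairs of libraries left out, and copies joined in chains. No label used says whether the replicate numbers pair the samples, and the main fits took the samples as unpaired.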

Additional observations from a re-analysis of the deposited data

Results flagged for a closer look

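In 6 of 90 groups of 4 libraries checked, 1 library lay far from the other 3 by Dixon's criterion, which chance meets in about 1 group in 20. Among WT survival libraries it was replicate 3 in all 4 cases: the sum of all members was 56069 against 30074 to 33406, the H4 sum 31213 against 13023 to 15542, Hist1h4m 25245 against 8858 to 11357, and Hist1h3h 851 against 607 to 645. These cases are nested in part: in that library Hist1h4m was 80.9% of the H4 sum and H4 was 55.7% of the histone sum. The groups checked are therefore not independent of each other. In WT acute, Hist1h4j was at 140.5 in 1 library and at 175 to 181 in the others. In KO acute, Hist2h2aa2 was at 37.2 in replicate 2 and at 0 to 4.88 in the others. The part of marker shares in these values was not tested.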

How the results depend on the processing

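Of 19 alternatives for the acute comparison, 17 gave a count of lower calls within 1.5 times the 28 reported. The other alternatives gave 18 (limma without the variance trend, 17 of them among the 28, background 2.87%) and 17 (without KO acute replicates 1 and 2, background 4.78%). Leaving out 1 library at a time gave 20 to 26 lower and 0 to 1 higher calls. The 1 higher call, without KO acute replicate 2, was Hist2h2aa1 (0.89, adjusted p = 0.0435). The replicate block gave 25 lower calls, all among the 28, and none in the survival comparisons. To look for pairing, each gene's group mean was subtracted from its log2 values, and the deviations left were correlated between libraries of different groups. These deviations correlated at -0.029 to 0.095 for same-numbered libraries and at -0.102 to 0.105 for differently numbered ones, so the numbers were not taken as pairs. With so few libraries per group, this cannot show that the samples were unpaired.

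After removal of the dependence on transcript length, GC and expression level, Hist1h1a reversed to 0.0494, Hist1h1b to 0.0597 and Hist1h3e to 0.0174. Hist1h4m, Hist1h4h, Hist1h4d, Hist1h4c, Hist1h4j, Hist2h3c2, Hist3h2ba and Hist1h2bg passed under all 18 alternatives. In the survival comparisons, leaving out 1 library at a time gave 0 lower calls and 0 to 1 higher calls. Without WT survival replicate 3, Hist1h4n was the 1 member called higher in the second wave (1.01, adjusted p = 0.0367) and in both waves joined (0.86, adjusted p = 0.0449). The acute histone sum was at -1.14 (log2 ratio of means) and without Hist1h4m, chosen after seeing the data, at -0.76. The cause of these changes was not tested. Joining copies was also chosen after seeing the data. The unknown depth limits the precision that can be given for low members.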
